A study of Homo sapiens with 2 samples.

Results

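The genes described here are 37 genes of cholesterol and fatty acid synthesis, chosen by symbol for their known roles, out of 38637 genes listed for 2 RNA-seq libraries. They comprise 17 enzymes of the sterol branch, 15 genes of the fatty acid branch and 5 regulators or transporters. Both libraries came from H1299 cells, an established line of human non-small cell lung cancer grown from a lymph node metastasis, with the genotype label wild type. One library was labelled PHF12 KD and titled with the prefix si, and the other, the control, was labelled as receiving no treatment and titled nc. The labels do not say if an oligonucleotide was given to the control. PHF12 is a PHD zinc finger protein that works with Sin3 and histone deacetylases in transcriptional repression, and the series title places it in EGFR and AKT signalling. There was 1 library per group, so every difference below compares these libraries and has no replicate check. The knockdown library held 26084594 counts and the control library 24740581 counts.

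The sterol branch turns acetyl-CoA into mevalonate, farnesyl diphosphate, squalene, lanosterol and finally cholesterol, while the fatty acid branch turns acetyl-CoA into palmitate and then into longer or unsaturated acyl chains. Both branches are controlled by the sterol regulatory element-binding proteins, which the genes SREBF1 and SREBF2 encode. The escort protein SCAP carries these factors from the endoplasmic reticulum to the Golgi for cleavage when membrane sterol is low. INSIG1 holds SCAP back when sterol is ample. SREBF2 products are best known for driving sterol genes and SREBF1 products for driving fatty acid genes, and lung cancer lines commonly make much of their own lipid.

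The promoter windows below are marked for the sterol regulatory element core and for other short promoter elements. They belong to the highest sterol enzyme by ratio (FDPS), the highest and the lowest regulator (INSIG1 and SREBF2) and ELOVL7, the lowest fatty acid gene that had a window in the RefSeq table used. Each runs from 250 bases before to 50 bases after an annotated start (GRCh38.p14, read 5′ to 3′ on the gene's strand). Capitals mark a sterol regulatory element core (TCACNCCAC), an NF-Y box (CCAAT), an SP1 box (GGGCGG) or an E-box (CACGTG) on either strand, and overlapping matches run together.
FDPS, chr1:155308616-155308915, plus strand: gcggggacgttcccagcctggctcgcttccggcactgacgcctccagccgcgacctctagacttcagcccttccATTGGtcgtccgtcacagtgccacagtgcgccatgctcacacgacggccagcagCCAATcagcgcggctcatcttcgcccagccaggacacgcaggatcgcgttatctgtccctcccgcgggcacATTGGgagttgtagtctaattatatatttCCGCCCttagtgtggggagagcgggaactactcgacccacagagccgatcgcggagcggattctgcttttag
INSIG1, chr7:155297628-155297927, plus strand: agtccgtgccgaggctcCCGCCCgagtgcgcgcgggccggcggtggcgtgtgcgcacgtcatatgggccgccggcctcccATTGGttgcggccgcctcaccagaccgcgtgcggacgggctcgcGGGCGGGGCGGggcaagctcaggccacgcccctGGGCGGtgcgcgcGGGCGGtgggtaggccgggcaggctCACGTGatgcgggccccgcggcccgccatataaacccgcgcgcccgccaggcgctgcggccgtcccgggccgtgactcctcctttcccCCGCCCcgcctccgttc
SREBF2, chr22:41832855-41833154, plus strand: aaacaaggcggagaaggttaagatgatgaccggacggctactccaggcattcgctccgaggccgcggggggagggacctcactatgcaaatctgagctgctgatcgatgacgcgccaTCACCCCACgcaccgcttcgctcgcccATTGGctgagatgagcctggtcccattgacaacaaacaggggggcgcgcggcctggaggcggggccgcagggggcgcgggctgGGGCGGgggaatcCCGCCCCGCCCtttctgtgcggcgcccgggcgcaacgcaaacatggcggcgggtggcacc
ELOVL7, chr5:60844220-60844519, minus strand: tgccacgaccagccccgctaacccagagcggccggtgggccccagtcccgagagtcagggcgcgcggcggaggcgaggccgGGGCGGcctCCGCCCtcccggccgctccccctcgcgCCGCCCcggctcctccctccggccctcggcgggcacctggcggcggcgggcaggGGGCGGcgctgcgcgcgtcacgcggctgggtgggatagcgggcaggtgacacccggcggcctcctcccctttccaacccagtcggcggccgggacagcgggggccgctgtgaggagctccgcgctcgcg

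A window was matched for 34 of the 37 genes, all but SQLE, FDFT1 and FASN. The core TCACNCCAC occurred only in the SREBF2 window among these 34, 2.94% of them, against 1.01% of the 11239 measured genes with a window and 1.15% of all 27305 windows. Its first base lay at position −133 relative to the annotated start, with an NF-Y box in the opposite orientation at −106. An NF-Y box, the site of a factor that commonly works beside the sterol factors, occurred in 22 of the 34 windows (64.7%), against 36.6% of measured genes and 35.7% of all windows. Among sterol enzymes 12 of 15 windows held one, and among fatty acid genes 7 of 14. An SP1 box occurred in 31 of the 34 (91.2%), against 69.8% of measured genes and 44.6% of all windows, and an E-box in 5 of the 34 (14.7%), against 10.2% and 7.43%. The FDPS window held 3 NF-Y boxes and 1 SP1 box, the INSIG1 window 1 NF-Y box, 6 SP1 boxes and an E-box, and the ELOVL7 window 4 SP1 boxes alone. These matches describe the letters of 1 window per gene, and other elements that vary from these letters were not searched.

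The targeted gene and the identity of the cells give the frame for these values. PHF12 had 756 counts and 8.71 TPM in the knockdown library, against 947 counts and 11.4 TPM in the control library, a log2 ratio of −0.41 (−0.55 to −0.27), a ratio of 0.753, so most of the transcript was still present in the knockdown library. KRT8, KRT18, VIM and NRAS were abundant in both libraries, from 104 to 4876 TPM in the knockdown library and from 74.7 to 5349 TPM in the control library. Of 11 markers of leukocytes, endothelium, hepatocytes and adipocytes, PECAM1 had 50 and 43 counts in the knockdown and control libraries and the others at most 19 in either, with PTPRC and CD3E at 0 in both.

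All 37 genes passed the expression minimum, and most differed little between the libraries. The gene furthest above the control was FDPS, at 1.27 times the control level, and the gene furthest below was FASN, at 0.805 of it. The median log2 ratio of knockdown over control was −0.0099 over the 17 sterol enzymes and 0.0098 over the 15 fatty acid genes, against −0.0074 over the 14559 measured genes, those whose mean reached 1 CPM (counts scaled to a library size of 1000000, with TMM scaling factors). The branches therefore had medians within 0.1 of each other on the log2 scale and of all genes. Of the 5 regulators, 4 were below 0 and INSIG1 was above. In bulk RNA, fewer cells of a kind and less RNA per cell cannot be told apart.

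Genes were counted by size, a log2 ratio of at least 0.32 either way, since 1 library per group allows no test. FDPS alone was higher by this size, 1 of 37 genes, where 8.28% of all measured genes were. None of the 37 was lower by this size, where 9.41% of all measured genes were. The nearest genes inside the limits were FASN at −0.31 and INSIG1 at 0.29. Among the 10002 genes at or above the CPM of SCD5, the least abundant of the 37, the shares were 4.67% higher and 5.01% lower. At 1.1-fold, 5 of the 37 were higher (FDPS, INSIG1, SC5D, ACSL4 and PMVK) where 24.2% of measured genes were, and 3 were lower (FASN, ELOVL7 and SREBF2) where 25.9% were. These 1.1-fold shares include genes less abundant than any of the 37, and no share at matched abundance was taken. A log2 ratio within 0.1 of 0 was found for 23 of the 37 genes (62.2%), against 38.4% of all measured genes. Abundant genes have less counting noise, and among genes of at least 100 CPM the share was 62.5% of the 24 lipid genes that reached it and 54.1% of all 2369.

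**Figure D1:**
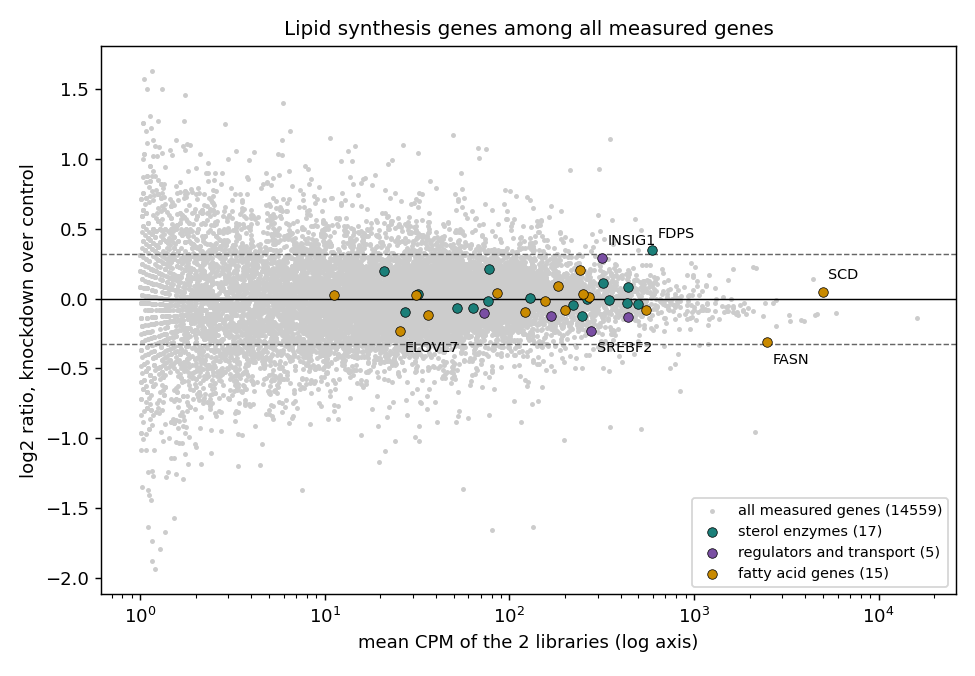
Log2 ratio of knockdown over control (vertical) against mean CPM of the 2 libraries (horizontal, log axis) for the 14559 measured genes in grey and the 37 lipid synthesis genes in colour; dashed lines mark a log2 ratio of 0.32 either way. FDPS alone lies above the upper line, and FASN and INSIG1 lie just inside the lines.

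Each log2 ratio carries a 95% counting interval, which covers sampling of reads only and none of the variation between cultures. By that interval 9 of the 37 genes were above a ratio of 1, where 20.3% of measured genes were, and 11 were below, where 20.9% were. The interval included 1 for the other 17. Intervals narrow with abundance, and 24 of the 37 genes reached 100 CPM against 2369 of the 14559. Of these 24 genes 7 were above and 9 below, against 864 and 722 of the 2369. Among the 10002 genes at or above the CPM of SCD5, 2515 were above and 2504 below.

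**Figure D2:**
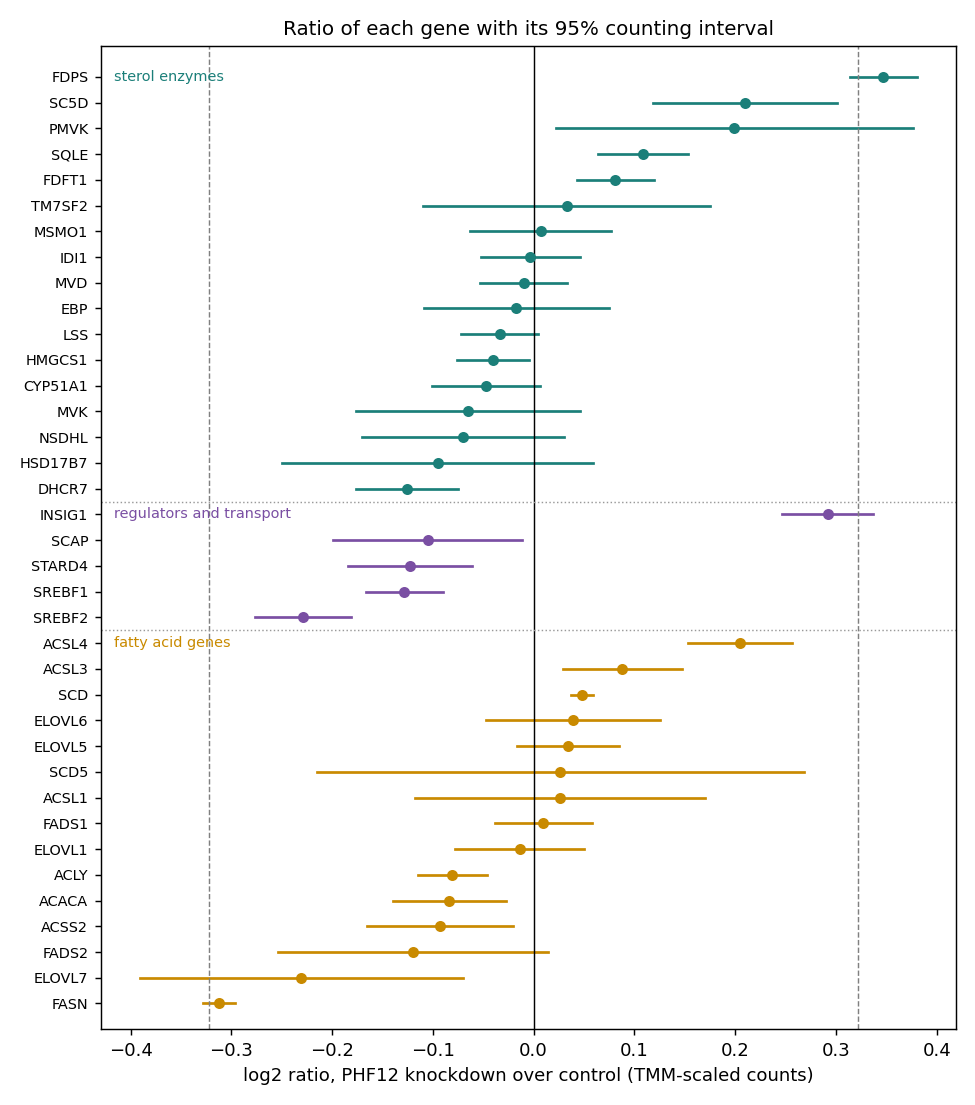
Log2 ratio of knockdown over control for each gene (points) with its 95% counting interval (lines), sorted within the 3 groups; dashed lines mark a log2 ratio of 0.32 either way. The ratios span −0.31 for FASN to 0.35 for FDPS, and most sterol enzymes lie close to 0.

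Of the 5 regulators, SREBF2, SREBF1, SCAP and STARD4 had a counting interval below a ratio of 1, as 20.9% of measured genes did. INSIG1 had an interval above that ratio, as 20.3% did. Among the 10002 genes at or above the CPM of SCD5, 2504 had an interval below that ratio and 2515 above. SREBF2, on chromosome 22 from 41833105 to 41907308 (hg38), encodes the factor best known for the sterol genes. It had 6700 counts and 97.7 TPM (deposited transcript levels per length) in the knockdown library, against 7404 counts and 112 TPM in the control library, a log2 ratio of −0.23 (95% counting interval −0.28 to −0.18). It was thus lower in the knockdown library, and 29.6% of measured genes had a larger absolute log2 ratio. SREBF1, on chromosome 17 from 17811334 to 17837017, had 10940 counts and 224 TPM in the knockdown library and 11275 counts and 240 TPM in the control library, a log2 ratio of −0.13 (−0.17 to −0.090). With a trend of the ratio on GC content and transcript length removed, the value for SREBF1 was −0.048. Per unit of length the SREBF1 transcript was 2.29 times as abundant as SREBF2 in the knockdown library and 2.13 times in the control library.

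SREBF2 and SREBF1 each carry a microRNA within the gene, and these are shown because the hosts were the lowest and the next lowest regulator. The mature forms in the RefSeq table (GRCh38.p14) have their seeds, bases 2 to 8, in capitals.
hsa-miR-33a-5p, in SREBF2, chr22:41900949-41900969, plus strand: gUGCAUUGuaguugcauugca
hsa-miR-33b-5p, in SREBF1, chr17:17813897-17813916, minus strand: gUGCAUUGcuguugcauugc
The seed UGCAUUG is the same in both. Mature microRNAs were not measured here, and both hairpin genes were listed with 0 counts in each library. Transcripts of ABCA1, a cholesterol efflux pump, and CPT1A, which admits fatty acids to mitochondria, are among the known targets of this seed. Both were named after their values were seen, other targets are not given here, and a link to the host genes was not tested. ABCA1 had 1213 counts in the knockdown library and 1199 in the control library, a log2 ratio of −0.068 (−0.18 to 0.048). CPT1A had 2820 and 2305 counts in the knockdown and control libraries, a log2 ratio of 0.21 (0.13 to 0.29).

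INSIG1, on chromosome 7 from 155297878 to 155310235, is both a brake on SCAP and a well-known target of the sterol factors. It had 9112 counts and 320 TPM in the knockdown library, against 7019 counts and 257 TPM in the control library, a log2 ratio of 0.29 (0.25 to 0.34). It was the only higher member among the 5 and the second highest of the 37, at 1.22 times the control level. SCAP, the escort, had 1829 counts and 41.2 TPM in the knockdown library and 1855 counts and 43.6 TPM in the control library, a log2 ratio of −0.11 (−0.20 to −0.011). STARD4, a cytosolic sterol carrier, had 4196 counts and 44.6 TPM in the knockdown library and 4307 counts and 47.8 TPM in the control library, a log2 ratio of −0.12 (−0.18 to −0.061). SREBF2, SREBF1 and STARD4 were thus lower and INSIG1 higher in the knockdown library, none past 0.32. SCAP was at −0.027 with the GC and length trend removed, and its interval, −0.12 to 0.067, then included a ratio of 1. Each of SREBF2, SREBF1, SCAP and STARD4 overlaps a gene on the other strand, and the strand setting of the counting is not given. SREBF2-AS1 and SHISA8, which overlap SREBF2, had log2 ratios of −0.20 (−0.43 to 0.022) and −0.11 (−0.25 to 0.025). RAI1, which overlaps SREBF1, was at −0.21 (−0.28 to −0.14). CAMK4 and STARD4-AS1, which overlap STARD4, were at −0.10 (−0.19 to −0.013) and −0.40 (−0.97 to 0.17). The gene over SCAP had 3 counts in the knockdown library and 1 in the control library. Their part in the regulators' values was not tested.

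**Figure D3:**
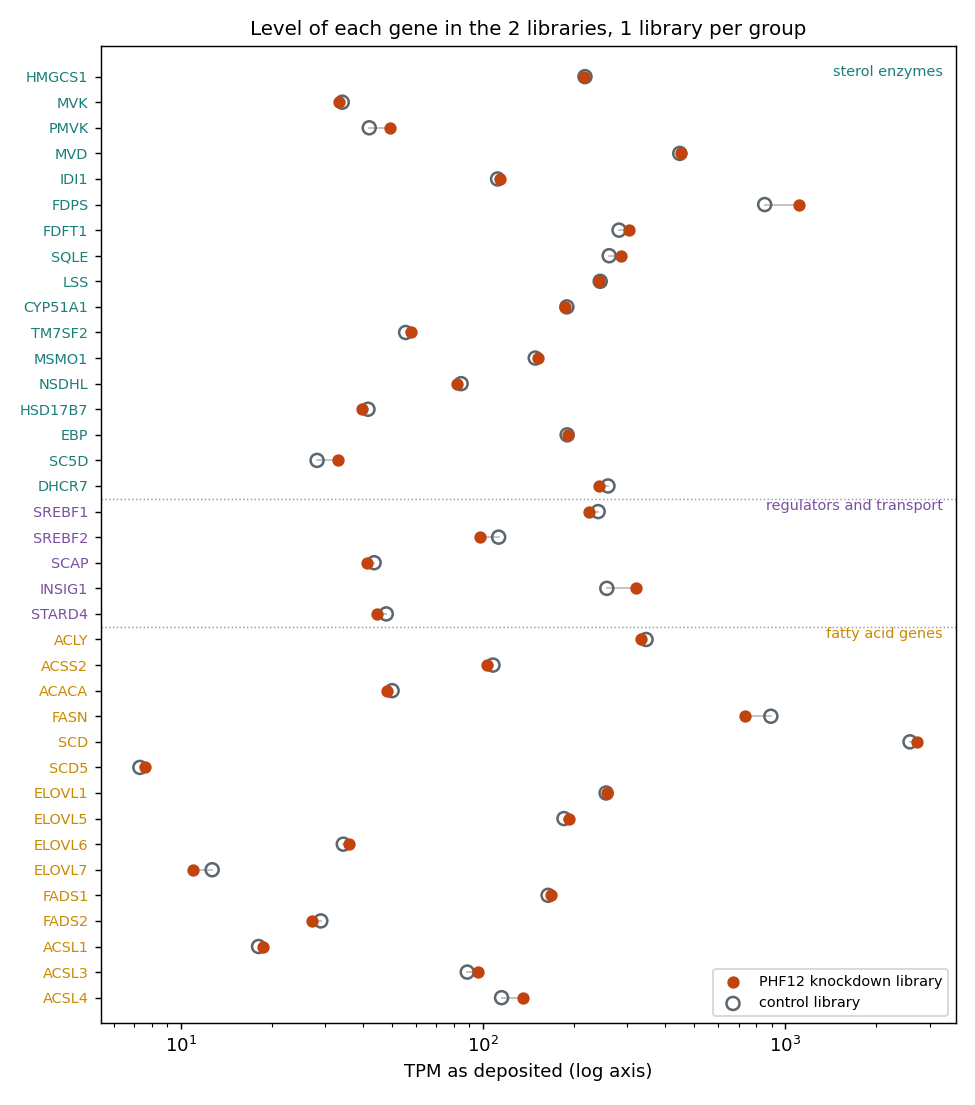
TPM as deposited (horizontal, log axis) of each of the 37 genes in the PHF12 knockdown library (filled) and the control library (open), in pathway order; the dotted lines separate the 3 groups. Levels run from 7.57 TPM (knockdown) and 7.31 TPM (control) for SCD5 to 2720 TPM (knockdown) and 2585 TPM (control) for SCD, and the symbols nearly coincide for most genes.

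In the sterol branch FDPS alone passed 0.32. The counting interval lay above a ratio of 1 for 5 of the 17 enzymes, where it did for 20.3% of measured genes. It lay below that ratio for 2, where it did for 20.9%. Among the 10002 genes at or above the CPM of SCD5 it lay above for 2515 and below for 2504. HMGCS1, which condenses acetyl-CoA and acetoacetyl-CoA to HMG-CoA, MVK and MVD, which phosphorylate and decarboxylate mevalonate derivatives, and the isomerase IDI1 had log2 ratios between −0.065 for MVK and −0.0033 for IDI1. HMGCS1, at −0.040 (−0.076 to −0.0045), was the only one of these whose interval lay clear of a ratio of 1. All 37 genes shifted up by 0.0084 with scaling by total counts, which is more than the distance of this interval from that ratio. With a trend of the ratio on GC content and length removed, MVD was at 0.090 (0.047 to 0.13). PMVK, the second mevalonate kinase, had 582 counts and 49.0 TPM in the knockdown library, against 478 counts and 42.0 TPM in the control library, a log2 ratio of 0.20 (0.022 to 0.38). It was higher in the knockdown library, with a wide interval on few counts.

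FDPS, on chromosome 1 from 155308801 to 155320665, makes farnesyl diphosphate, the precursor of squalene and of the prenyl groups on small GTPases. It had 17399 counts and 1106 TPM in the knockdown library, against 12898 counts and 854 TPM in the control library, a log2 ratio of 0.35 (0.31 to 0.38). FDPS was the most abundant sterol enzyme per length in both libraries and ranked 111th of all genes by TPM in the knockdown library and 150th in the control library. Its share of the counts of the 17 sterol enzymes was 16.99% (exact binomial interval 16.8% to 17.2%) in the knockdown library and 13.9% (13.6% to 14.1%) in the control library. FDPS shares 3812 bases of its span with RUSC1-AS1 on the other strand. RUSC1-AS1 had 3146 counts in the knockdown library and 2462 in the control library, a log2 ratio of 0.27 (0.19 to 0.35), and its part in the FDPS value was not tested. FDPS also has processed pseudogenes, of which the listed FDPSP2 had 0 counts in both libraries.

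FDFT1, the squalene synthase, had 11796 counts and 303 TPM in the knockdown library, against 10516 counts and 282 TPM in the control library, a log2 ratio of 0.081 (0.043 to 0.12). SQLE, the squalene epoxidase and a rate-limiting step of the branch, had 8704 counts and 287 TPM in the knockdown library, against 7611 counts and 261 TPM in the control library, a log2 ratio of 0.11 (0.064 to 0.15). Both ratios were above 1 beyond counting error and well inside 0.32. LSS, which closes squalene epoxide to lanosterol, had a log2 ratio of −0.034 (−0.072 to 0.0044).

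Of the 8 enzymes after lanosterol, the counting interval lay above a ratio of 1 for SC5D, where it did for 20.3% of measured genes, and below it for DHCR7, where it did for 20.9%. SC5D, the sterol C5 desaturase, had 2178 counts and 33.2 TPM in the knockdown library, against 1776 counts and 28.2 TPM in the control library, a log2 ratio of 0.21 (0.12 to 0.30). DHCR7, which reduces the product of SC5D to cholesterol, had 6176 counts and 241 TPM in the knockdown library, against 6353 counts and 259 TPM in the control library, a log2 ratio of −0.13 (−0.18 to −0.075). SC5D was thus higher and the enzyme after it lower, although DHCR7 was at −0.063 with the GC and length trend removed. The demethylase CYP51A1, the reductase TM7SF2, the C4 demethylation enzymes MSMO1, NSDHL and HSD17B7 and the isomerase EBP had log2 ratios from −0.095 for HSD17B7 to 0.033 for TM7SF2, each with an interval that included a ratio of 1. With the trend removed CYP51A1 was at −0.077 (−0.13 to −0.023). HSD17B7 has a listed pseudogene, HSD17B7P2, with 62 counts in the knockdown library and 56 in the control library.

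In the fatty acid branch no gene passed 0.32 either way. The counting interval lay above a ratio of 1 for 3 of the 15 genes, where it did for 20.3% of measured genes. It lay below that ratio for 5, where it did for 20.9%. Among the 10002 genes at or above the CPM of SCD5 it lay above for 2515 and below for 2504. FASN, on chromosome 17 from 82078338 to 82098303, encodes the synthase that builds palmitate. It had 58007 counts and 734 TPM in the knockdown library, against 67917 counts and 895 TPM in the control library, a log2 ratio of −0.31 (−0.33 to −0.30). FASN was the lowest of the 37, and 18.7% of measured genes had a larger absolute log2 ratio. With the trend on GC content and length removed its log2 ratio was −0.23. ACLY, which makes cytosolic acetyl-CoA from citrate, had 14054 counts and 333 TPM in the knockdown library and 14014 counts and 346 TPM in the control library, a log2 ratio of −0.081 (−0.11 to −0.047).

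ACSS2, which makes acetyl-CoA from acetate, had 3080 counts and 103 TPM in the knockdown library and 3097 counts and 108 TPM in the control library, a log2 ratio of −0.093 (−0.17 to −0.020). ACACA, the carboxylase that makes malonyl-CoA, had 5081 counts and 47.98 TPM in the knockdown library and 5077 counts and 49.97 TPM in the control library, a log2 ratio of −0.084 (−0.14 to −0.027). ACLY, ACSS2 and ACACA thus lay close to 0, inside 0.32, with intervals below a ratio of 1. With the GC and length trend removed ACSS2 was at −0.058 (−0.13 to 0.014), an interval that included a ratio of 1. The TPM of FASN was 15.3 times that of ACACA in the knockdown library and 17.9 times in the control library.

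SCD, on chromosome 10 from 100347233 to 100364826, puts the first double bond into palmitate and stearate and was the most abundant of the 37. It had 132202 counts and 2720 TPM in the knockdown library, against 120583 counts and 2585 TPM in the control library, a log2 ratio of 0.048 (0.037 to 0.059). It ranked 38th of all genes by TPM in the knockdown library and 39th in the control library and took 0.507% of all counts in the knockdown library and 0.487% in the control library. SCD was therefore high in both libraries and nearly level between them, next to a FASN transcript that was lower. SCD5, its paralog, had 297 counts in the knockdown library and 275 in the control library, a log2 ratio of 0.026 (−0.22 to 0.27), and SCD exceeded SCD5 in TPM 359 times in the knockdown library and 354 times in the control library.

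Of the 4 elongases among the 37 genes, ELOVL7 alone had a counting interval below a ratio of 1, as 20.9% of measured genes did. ELOVL7, which lengthens saturated chains, had 611 counts and 10.995 TPM in the knockdown library, against 676 counts and 12.68 TPM in the control library, a log2 ratio of −0.23 (−0.39 to −0.071). It was lower in the knockdown library but was the least abundant of the 4 elongases. ELOVL1, ELOVL5 and ELOVL6 had log2 ratios from −0.014 to 0.039 with intervals that included a ratio of 1. The desaturases of polyunsaturated chains, FADS1 and FADS2, had log2 ratios of 0.0098 (−0.039 to 0.058) and −0.12 (−0.25 to 0.014). Their spans share 801 bases on opposite strands of chromosome 11, and FADS1 exceeded FADS2 in TPM 6.18 times in the knockdown library and 5.65 times in the control library.

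The acyl-CoA ligases activate fatty acids for use in lipids. ACSL4, which prefers arachidonate and is known for its role in ferroptosis, had 6749 counts and 135 TPM in the knockdown library, against 5521 counts and 115 TPM in the control library, a log2 ratio of 0.21 (0.15 to 0.26). ACSL3, a ligase of lipid droplets, had 4951 counts and 95.8 TPM in the knockdown library, against 4392 counts and 88.6 TPM in the control library, a log2 ratio of 0.088 (0.029 to 0.15). ACSL4 was higher in the knockdown library. ACSL3 was at 0.038 (−0.021 to 0.097) with the GC and length trend removed, an interval that included a ratio of 1. ACSL1 had a log2 ratio of 0.026 (−0.12 to 0.17) on 825 counts in the knockdown library and 764 in the control library.

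Weighted by abundance, the branches were set by a few genes. The sterol enzymes summed to 3915 CPM in the knockdown library and 3772 CPM in the control library, a ratio of 1.04 (1.03 to 1.05). Without FDPS the remaining 16 summed to 3250 and 3249 CPM in the knockdown and control libraries, so the excess of the sterol sum lay in FDPS. The fatty acid genes summed to 9434 CPM in the knockdown library and 9807 CPM in the control library, a ratio of 0.962 (0.957 to 0.967). SCD made up 53.6% of these counts in the knockdown library and 49.8% in the control library, and FASN 23.5% in the knockdown library and 28.1% in the control library. Without FASN the log2 ratio of the fatty acid sum was 0.033, against −0.056 with it, and without SCD and FASN it was −0.0016 (−0.019 to 0.015). The sums of TPM gave log2 ratios of 0.12 for the sterol enzymes and −0.0023 for the fatty acid genes.

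**Figure D4:**
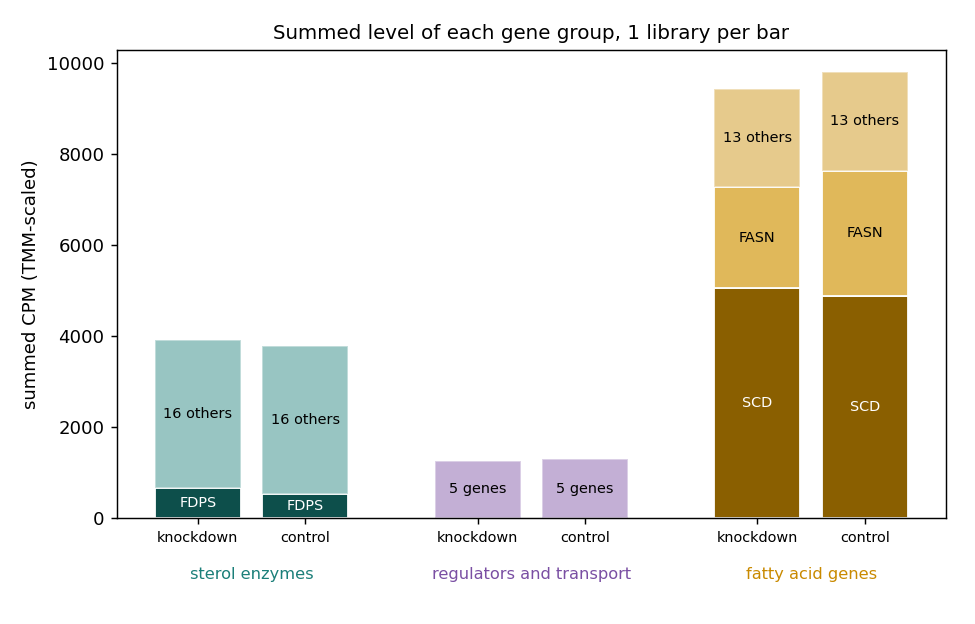
Summed CPM of the sterol enzymes, the regulators and the fatty acid genes in the knockdown and the control library (bars, 1 library each), with FDPS, SCD and FASN as their own segments. The fatty acid bars, 9434 CPM (knockdown) and 9807 CPM (control), are mostly SCD and FASN, and the sterol bars differ by the FDPS segment.

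Single genes of other lipid pathways reached larger ratios than any of the 37. Of 12 genes of mevalonate side branches and acetyl-CoA entry, 8 lay above 0 (66.7%, against 48.4% of measured genes), none reached 0.32 either way and the median log2 ratio was 0.082. The largest values were those of PDSS2, in ubiquinone synthesis, at 0.30 (0.14 to 0.46) and NUS1, in dolichol synthesis, at 0.28 (0.21 to 0.35), both named after their values were seen. Of 11 genes of SREBP processing and degradation, 1 was higher and 2 were lower by at least 0.32 on the log2 scale (against 8.28% and 9.41% of measured genes), with a median of 0.011. ERLIN2, an endoplasmic reticulum scaffold that binds the SCAP and INSIG complex, had 1062 counts in the knockdown library and 592 in the control library, a log2 ratio of 0.76 (0.61 to 0.91). RNF139, a ubiquitin ligase of the same membrane, had 649 and 1026 counts in the knockdown and control libraries, a log2 ratio of −0.75 (−0.89 to −0.60). SPRING1, which is needed for cleavage of the SREBPs, had 1551 counts in the knockdown library and 1979 in the control library, a log2 ratio of −0.44 (−0.53 to −0.34). ERLIN2 was thus higher and RNF139 and SPRING1 lower in the knockdown library, by more than any of the 37.

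Of 13 genes of sterol efflux, esterification and transport, 12 were measured. MYLIP, a ubiquitin ligase for lipoprotein receptors, was the only one past 0.32 either way, against 8.28% of measured genes higher and 9.41% lower. It had 370 counts in the knockdown library and 269 in the control library, a log2 ratio of 0.38 (0.14 to 0.61). Of 13 fatty acid oxidation genes, 9 lay above 0 (69.2%, against 48.4% of measured genes) with a median of 0.074, and the mitochondrial carnitine carrier SLC25A20 alone passed 0.32 (1 of 13, against 8.28% of measured genes), with 593 counts in the knockdown library and 412 in the control library, a log2 ratio of 0.44 (0.26 to 0.63). Of 16 other elongation and NADPH genes, 15 were measured. By at least 0.32, 1 was higher and 1 lower, against 8.28% and 9.41% of measured genes. The elongase ELOVL4 was at 0.18 (0.035 to 0.33) and ME1, a cytosolic source of NADPH, at 0.52 (0.37 to 0.67). ACSL6 was at −1.28 (−2.09 to −0.51) on 21 counts in the knockdown library and 48 in the control library. Of 17 glycerolipid synthesis genes, 1 passed 0.32 either way, where 8.28% of measured genes were higher and 9.41% lower. This gene was DGAT2, which makes triacylglycerol. It had 457 counts in the knockdown library and 721 in the control library, a log2 ratio of −0.74 (−0.91 to −0.57), and the median of these genes was −0.041.

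**Figure D5:**
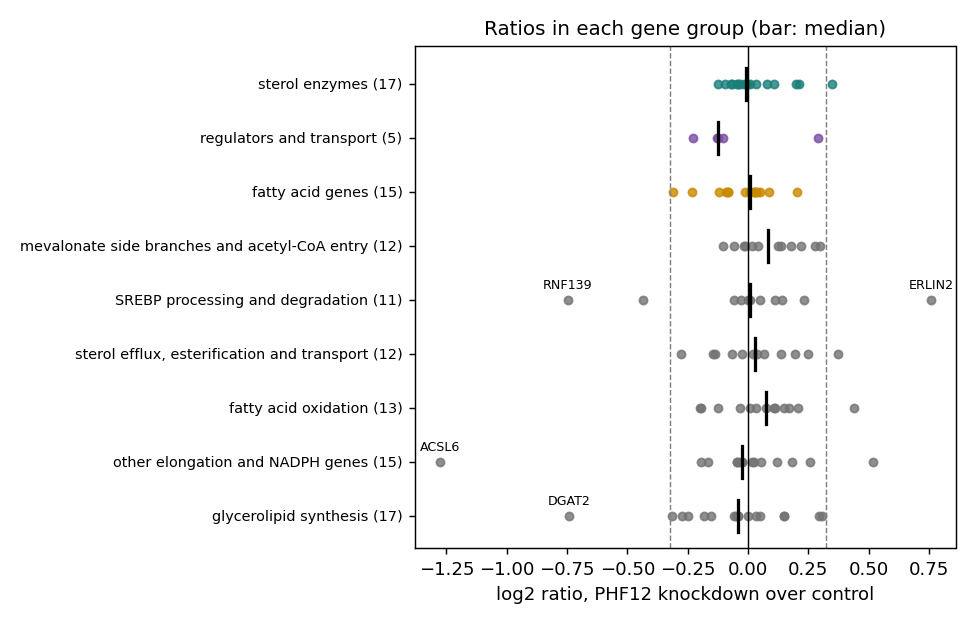
Log2 ratio of knockdown over control for each measured gene (points) of the 3 lipid synthesis groups and of 6 lists of other lipid pathway genes, with the median as a black bar and dashed lines at 0.32 either way. The 37 lipid synthesis genes stay between −0.31 and 0.35, while RNF139 at −0.75, DGAT2 at −0.74, ACSL6 at −1.28 and ERLIN2 at 0.76 lie farther out.

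An earlier analysis of these libraries found words of 7 bases over-represented in 3′ UTRs of genes that were lower or higher. None of the 37 genes held a word of the lower genes (ACATCGA or CATCGAA), which 2.71% of 12323 measured protein-coding genes with a 3′ UTR held. TM7SF2 alone held a word of the higher genes (TCGGAGA or ATCGGAG), which 3.10% held.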

How the data were processed

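RNA-seq was measured in 1 PHF12 knockdown and 1 control library of H1299 cells. The tools named in the submitters' processing notes are HISAT2, an aligner, and HTSeq, a read counter, with the build hg38. Not given in the sources used here were versions, the annotation and the strand setting. The authors deposited raw counts per gene, whole numbers with different totals, and TPM, which equal counts per listed gene length scaled to a sum of 1000000. From the counts, TMM factors (edgeR 4.0.16, R 4.3.3) gave 1.00 for the knockdown and 0.997 for the control library. The expression minimum, a mean of 1 CPM, kept 14559 genes. Ratios carry no pseudocount, and their 95% intervals are exact conditional intervals for 2 Poisson counts, which cover counting error only. With 1 library per group no test was made; genes were counted at 1.25-fold. Shares have exact Clopper-Pearson intervals.

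Genes given in full are, in each branch, those with the largest absolute log2 ratio among those whose interval excludes a ratio of 1 (6 sterol, 6 fatty acid, all 5 regulators), the most abundant gene of each branch, PHF12, and other pathway genes past 1.25-fold. Others named were chosen after their values were seen. The 37 genes, lists, motifs and words were chosen with earlier results of these data known. Promoters and microRNAs came from RefSeq (the first listed window per gene, GRCh38.p14), and 3′ UTRs from GENCODE release 29, the longest per gene. Interval and size rule were run on simulated Poisson counts, which hold no variation between cultures, so this run cannot show how they perform with such variation. Alternatives were other scalings (total counts, DESeq2 1.42.0 size factors), deposited TPM, a pseudocount, other expression filters and folds, thinning, and, after the data were seen, removal of a GC and length trend and leaving out overlapping or single genes. Python 3.11.15, numpy 2.4.6, pandas 2.3.3 and scipy 1.17.1 were used.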

Additional observations from a re-analysis of the deposited data

How the results depend on the processing

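No paired analysis was possible because each group has 1 library, and for the same reason none could be left out. Among the 37 genes, FDPS alone stayed past a log2 ratio of 0.32 under each scaling, filter, pseudocount, thinning and trend setting run. At 1.1-fold 5 of them were higher and 3 lower, and at 1.5-fold and 2-fold 0 were higher. Over all measured genes, 1.1-fold gave 3516 higher and 3772 lower, 1.5-fold 314 and 333, and 2-fold 48 and 46. Without an expression filter 3427 were higher and 3438 lower, and with a minimum of 5 CPM 691 and 740; these settings count over 20900 and 11775 genes. The fatty acid median was −0.047 without genes that overlap another gene on the other strand; the cause was not tested. The deposited TPM gave summed log2 ratios of 0.12 (sterol) and −0.0023 (fatty acid), scaling by total counts gave −0.048 (fatty acid), leaving out FDPS gave 0.00022 (sterol) and leaving out FASN 0.033 (fatty acid). The branch medians changed sign between settings (sterol 0.0086 with DESeq2 size factors, fatty acid −0.0019 with the regulators counted in), so no direction is given for either. Removing the trend shifted the 37 genes by −0.050 to 0.10 and put MVD at 0.090, LSS at 0.014, SCD at 0.025, ACSL3 at 0.038, ACSS2 at −0.058 and HMGCS1 at −0.075. The intervals of SCAP, ACSS2 and ACSL3 then included a ratio of 1 and those of MVD and CYP51A1 no longer did; the cause was not tested. DESeq2 size factors shifted all 37 genes up by 0.019. That is more than the distance from a ratio of 1 of the upper limits of HMGCS1 (−0.0045) and SCAP (−0.011). It is also more than that of the lower limit of ELOVL5 (−0.016), so these interval calls depend on the scaling. The deposited TPM shifted all 37 genes up by 0.025. That is more than the distance from a ratio of 1 of the upper limit of ACSS2 (−0.020), so its call depends on the scaling too. Depth limits SCD5, PMVK, HSD17B7 and ELOVL7 most.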
